A study of Homo sapiens with 4 samples.

Results

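The stretch described here is the centromere-side portion of the cluster of KRAB zinc finger protein (KZFP) genes at 19p12, from 21.5 Mb to 24.3 Mb on chromosome 19 in GRCh37 (hg19). Its members are all CpGs between these borders with at least 1 read in a library, which gave 28233 CpGs out of 27710999 on the autosomes and X. The assay was EM-seq, enzymatic methyl sequencing, which turns unmethylated cytosines into bases sequenced as T and leaves methylated ones as C. Libraries came from HEK293T, an established line of human embryonic kidney origin, with 2 libraries in each of 2 groups. WT is HEK293T without the deletion of ZNF274. In ZNF274KO the gene ZNF274 was deleted with Cas9 (plasmid pX459) and 2 sgRNAs, after which single cells were sorted. The labels do not say whether the WT libraries came from clones, or whether the 2 ZNF274KO libraries came from different clones. The spread between libraries may therefore be technical, and effects of a clone or of handling cannot be told apart from the genotype. The question of the comparison was how the methylation of this gene cluster differed without ZNF274.

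KZFPs are DNA-binding repressors with a KRAB domain, through which many recruit a silencing complex, and an array of C2H2 zinc fingers that contacts DNA. Many of their genes lie in tandem clusters on chromosome 19 that arose by duplication, and the finger array is as a rule encoded by a single long exon at the 3′ end. ZNF274 is itself a KRAB zinc finger protein and is known to bind such 3′ exons of other zinc finger genes. Methylation at CpG-dense gene starts is generally associated with silence, whereas bodies of transcribed genes are generally methylated.

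The annotation (GENCODE release 44 mapped to GRCh37) placed 25 protein-coding genes in the stretch, 22 of them with ZNF symbols, together with 68 pseudogenes and 32 lncRNA genes. The other 3 were RPSA2, a relative of a ribosomal protein gene, and 2 genes without a symbol, ENSG00000269237 and ENSG00000283201, which share bases with ZNF493 or ZNF724. ZNF708 and ZNF254 were cut by the borders and were measured whole. The longest coding exon of each of the 22 ZNF genes held the letters AAGAATGTGGCAAA, which in these fingers encode the zinc-binding cysteine before a glycine and a lysine, from 1 to 33 times on the strand of the gene, with a median of 10 and 0 matches on the other strand. Among all 4141 longest coding exons of the same length range, 1.52% held them on either strand. The string was picked as the 14 letters shared by most of these exons, so its share among them is a description. The exons are called zinc finger exons here.

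The starts of these genes carry the contrast described below, so the 250 bases before 2 of them are shown first, 5′ to 3′ on the strand of the gene and read from GRCh37, with every CG in capitals. The starts of ZNF429 (chr19:21688154-21688403, plus strand) and ZNF91 (chr19:23578274-23578523, minus strand) were nearly free of methylated reads over the bases shown.
ZNF429: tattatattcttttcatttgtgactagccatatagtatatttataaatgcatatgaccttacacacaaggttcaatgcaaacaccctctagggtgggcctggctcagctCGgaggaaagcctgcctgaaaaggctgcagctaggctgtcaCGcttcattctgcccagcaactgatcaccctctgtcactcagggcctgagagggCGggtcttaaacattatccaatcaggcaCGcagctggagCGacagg
ZNF91: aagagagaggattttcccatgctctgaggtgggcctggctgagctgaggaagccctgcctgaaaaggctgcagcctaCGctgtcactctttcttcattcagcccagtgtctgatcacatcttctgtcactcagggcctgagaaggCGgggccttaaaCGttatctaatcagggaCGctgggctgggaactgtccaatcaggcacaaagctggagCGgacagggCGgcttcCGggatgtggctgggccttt
The 5 CpGs shown for ZNF429 had levels of 0% (WT 1), 5.71% (WT 2), 0% (ZNF274KO 1) and 0% (ZNF274KO 2), on 29 to 55 reads. The 7 of ZNF91 were at 0%, 0%, 0% and 1.19% in the same order. The starts resembled each other in sequence as well as in position: TCCAATCAG, which contains the letters of a CCAAT box, occurred in the same 250 bases of 21 of the 22 ZNF genes, 29 times in all and on the gene strand only, and ZNF676 was the gene without it. Of all 20098 protein-coding starts 0.965% held it (both strands searched). It was picked as the 9 letters shared by most of the 22 starts and was not compared with methylation.

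The libraries held 241598512 to 295114493 reads over CpGs, with a median depth of 8 to 10 reads per CpG, where a read spanning several CpGs is counted at each. Within the stretch 191064 to 236857 reads were counted, 7 to 8 per CpG at the median, and the labels held at the targeted gene, whose CpGs (chromosome 19, 58694396 to 58724928) had 5158 (WT 1), 4274 (WT 2), 0 (ZNF274KO 1) and 14 (ZNF274KO 2) reads in all. The share of autosomal reads that fell in the stretch was 0.0832% and 0.0807% in WT and 0.0901% and 0.0828% in ZNF274KO, a ratio of means of 1.05, whereas the ratio for the whole of chromosome 19 was 0.895. The part of this difference in depth in the results was not tested. Levels (mCG) are methylated reads in percent of all reads at the CpGs concerned, and a difference between levels is given in percentage points. An intermediate level does not tell whether some of the cells or some of the alleles in every cell were methylated.

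Over the whole stretch the level was 26.6% in WT 1 and 26.3% in WT 2, and 62% in ZNF274KO 1 and 51.4% in ZNF274KO 2. Each ZNF274KO library was thus more methylated than each WT library, and the WT libraries differed from each other by far less than did the ZNF274KO pair. The means were 26.4% ± 0.221 and 56.7% ± 7.51 (SD, n = 2), a difference of 30.2 points. The exact two-sided permutation test gave p = 0.333, the smallest value that 2 libraries against 2 allow. Counting error was small at this scale (95% Wilson intervals from 26.4% to 26.8% in WT 1 and 51.1% to 51.6% in ZNF274KO 2). These intervals cover counting error only and take each count as independent, although a read is counted at every CpG it spans. The genome-wide level differed by -0.541 points, from 59.8% ± 0.819 to 59.3% ± 1.29, so that the stretch was far below the genome in WT and close to it in ZNF274KO. Reads of the Watson strand (26.3% and 56.7%) and of the Crick strand (26.6% and 56.7%) gave nearly equal group means.

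At single CpGs, WT was mostly unmethylated and ZNF274KO mostly partly or fully methylated. Of the 28233 CpGs, 15739 had at least 5 reads in every library. In WT 1 and WT 2, 55.4% and 55.7% of these had no methylated read, and 15.7% and 15.5% had a level of 80% or more. In ZNF274KO 1 and ZNF274KO 2 only 9.47% and 16.4% had no methylated read, and 41.6% and 30.8% reached 80%. The CpGs at 20% or less in both WT libraries numbered 9954. Of these, 47.0% were between 20% and 80% in ZNF274KO 1 and 43.2% in ZNF274KO 2, and 25.7% and 13.5% were at 80% or more. The 2033 CpGs at 80% or more in both WT libraries remained there in 88.9% (ZNF274KO 1) and 89.5% (ZNF274KO 2) of cases. These classes were set by the WT levels and are given as a description.

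Along the stretch the rise was broad but not uniform. It was tested in tiles of 5 kb with the quasi-likelihood test of edgeR on methylated and unmethylated reads, and a tile was called when its p-value, adjusted over all tiles of the genome by the Benjamini-Hochberg method, was under 0.05. All 560 tiles of the stretch could be tested, on a median of 298 to 377 reads per tile and library. Of these, 410 (73.2%) were called higher in ZNF274KO and 0 lower, against 0.473% called higher and 0.0131% called lower among all 563523 tiles tested in the genome. Limma called 175 tiles of the stretch, all among the 410, and without ZNF274KO 1 the count was 334. The called tiles rose by a median of 40.2 points (quartiles 29.6 and 49.1), and the median difference over all 560 tiles was 33.5 points, against -0.582 points over the genome. Each ZNF274KO library exceeded each WT library in 496 tiles, and each was below in 19. The first of these orders was met in 13.5% of tiles of the genome. The share of the genome in the second order was not counted, so the 19 tiles are a description.

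**Figure D1:**
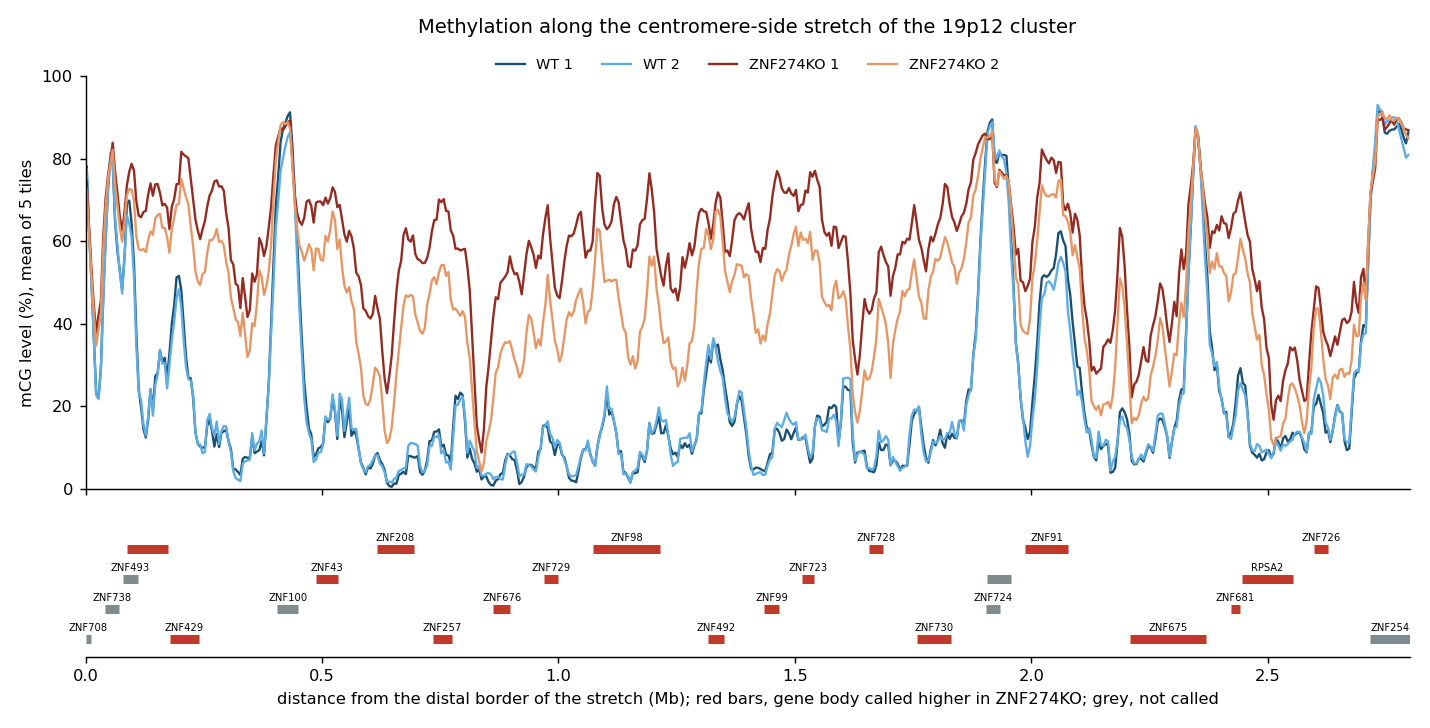
Upper panel: mCG level (%, y axis) in 5 kb tiles along the 2.8 Mb stretch, as the running mean of 5 tiles, against the distance from its distal border in Mb (x axis), with 1 line per library. Lower panel: protein-coding genes as bars, red where the gene body was called higher in ZNF274KO and grey where it was not. Both WT lines run low between a few methylated peaks, both ZNF274KO lines run above them with ZNF274KO 1 on top, and the 4 lines meet at the peaks over ZNF738, ZNF100, ZNF724, one end of ZNF675, and ZNF254.

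In bins of 100 kb, 24 of the 28 bins were called higher and 0 lower (edgeR adjusted p from 0.000165 to 0.0448), against 0.515% of 28518 bins in the genome. Limma called 18 of these 24 bins, 22 were called without CpGs in repeated sequence and 16 without ZNF274KO 1. In the 24 called by edgeR the WT mean ranged from 8.02% to 48.9% and the ZNF274KO mean from 30.4% to 72.1%. Bins and tiles are named here by their first base. The largest rise was in the bin at 21700001, from 18.8% and 20.1% in WT to 72.1% and 61.2% in ZNF274KO, or 47.2 points. This bin covers the 3′ part of ZNF429, which ends at 21739072, and the interval after it. The bin at 22300001, which holds ZNF676, was the least methylated in WT, at 7.34% and 8.70%, and reached 41.8% and 27.5%. Among the bins called, the rises of 16 were of 30 points or more.

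The 4 bins that were not called were the most distal one and those at 23400001, 24000001 and 24200001. The first of them, over ZNF708, ZNF738 and ZNF493, went from a mean of 58.7% to 64% (edgeR adjusted p = 0.785). The second, over ZNF724, went from 60.1% to 65.4%. The bin at 24200001, over ZNF254, stood at 76.5%, 77.8%, 78.3% and 77.8% in the 4 libraries and was thus high in all. The bin at 24000001, over the 3′ end of RPSA2, differed from these in being low in all: 14.4% and 14.6% in WT and 28.5% and 21.2% in ZNF274KO (edgeR adjusted p = 0.118). The median difference was 39.4 points over the 17 bins from 21700001 and 17.8 points over the 8 bins from 23500001, a division made after the profile was seen and not tested. It leaves out the bin at 23400001 (5.31 points) and the 2 most distal bins, which differed by 5.30 and 31.9 points.

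The size of the rise differed between the ZNF274KO libraries. ZNF274KO 1 lay above ZNF274KO 2 in all 28 bins and in 509 of 560 tiles, by a median of 11.2 points per tile, whereas WT 1 lay above WT 2 in 275 tiles, with a median difference of -0.0224 points. In the 24 called bins the rise of ZNF274KO 2 over the WT mean was 54.5% to 82.8% of that of ZNF274KO 1, with a median of 69.1%. Replicate SDs in these bins reached 3.69 points in WT and lay between 3.73 and 14.5 points in ZNF274KO.

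Of the called tiles that held 20 CpGs or more, the 5 that rose most lay inside the annotated bounds of 2 genes, ZNF723 and ZNF98. The tile from 23020001 to 23025000, in ZNF723, had levels of 2.16% and 5.22% in WT and 80.9% and 76.2% in ZNF274KO, a rise of 74.9 points on 51 CpGs (edgeR adjusted p = 2.15e-07). The tile from 22580001 to 22585000, in ZNF98, rose from 7.56% and 5.93% to 84.5% and 76.0%, or by 73.5 points. Another ZNF98 tile, at 22615001, was nearly free of methylation in WT, at 0.215% and 0.506%, and stood at 77.4% and 59.9% in ZNF274KO. It lay upstream of the canonical transcript of ZNF98 (minus strand, promoter window 22604148 to 22606148), within the annotated bounds only. The remaining ones were at 23035001 in ZNF723 (68.3 points) and 22575001 in ZNF98 (65.3 points). In all 5 the groups were separated by more than 50 points, which is a description, since the 5 were picked by their rise.

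Where WT was already methylated, the levels of the groups met. Runs of at least 4 tiles with both WT libraries at 50% or more were found in 7 places, 270 kb in all. Over these 54 tiles the level was 82.7% and 82.5% in WT and 83.2% and 82.6% in ZNF274KO, and 1 tile was called higher. Over the other 506 tiles it was 20.4% and 20.4% in WT and 59.6% and 48.0% in ZNF274KO, and 409 were called. The blocks lay over ZNF738, over ZNF493, over ZNF100, over ZNF724 and its neighbour (2 blocks), over one end of ZNF675 (23835001 to 23865000) and over ZNF254. The longest, 80 kb from 24220001 to the proximal border, had 89.5% and 90.7% in WT and 89.7% and 90.1% in ZNF274KO. They were defined by their WT level, and a tile near 90% has little room to rise, so this is a description with no test. The 21 tiles within 10 kb of a block had a median difference of 23.2 points and the 303 tiles more than 120 kb away one of 37.9 points. The near tiles were also more methylated in WT, with medians of 40.9% and 36.2% against 7.45% and 7%, and the part of the WT level in this difference was not tested.

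The same relation appeared when tiles were grouped by WT 1 alone. The 253 tiles under 10% in WT 1 had medians of 4.08% in the other WT library and of 53.6% and 35.6% in those of ZNF274KO, and 220 were called higher. The 62 tiles at 60% or more in WT 1 had medians of 85.2%, 87.5% and 86.6%, and 4 were called. Tiles with few CpGs were the least methylated: the 135 tiles with 11 to 29 CpGs had medians of 3.66% and 3.85% in WT and 45.6% and 28.2% in ZNF274KO, and the 142 tiles with 62 or more had 31.6% and 31.8% against 68.7% and 58.1%.

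**Figure D2:**
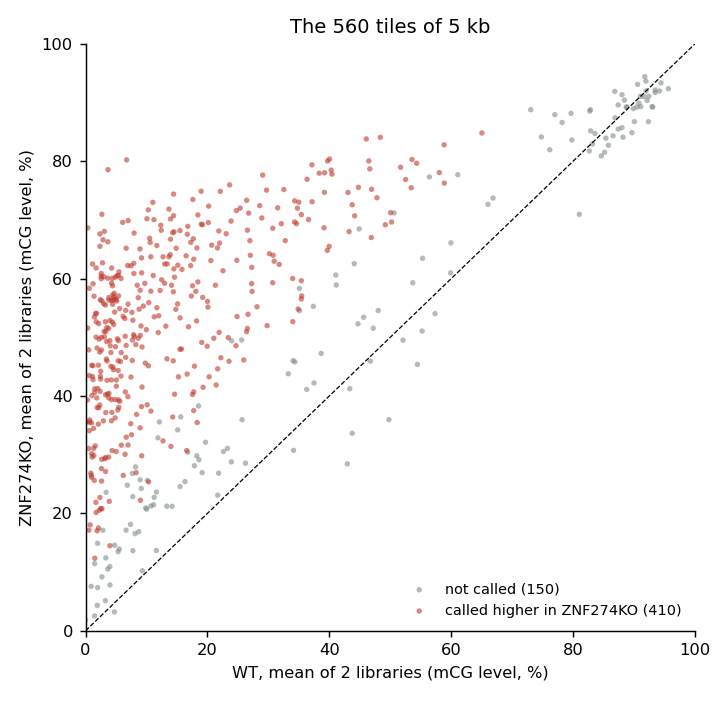
Each point is 1 of the 560 tiles of 5 kb, placed by its mean mCG level (%) over the 2 WT libraries (x axis) and over the 2 ZNF274KO libraries (y axis), red where called higher (410) and grey where not (150), with the dashed line marking equal levels. Most tiles stand at the left and far above the line, and the tiles above 80% in WT lie along it.

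A few low tiles stayed low. In 12 tiles both ZNF274KO libraries were under 15%, and 1 of these was called. The longest run, 3 tiles from 22325001 to 22340000, lay 21891 bases from ZNF676 and had 2.15% and 1.59% in WT and 3.88% and 1.81% in ZNF274KO on 50 CpGs. The others were single tiles, among them 1 in ZNF208 at 22135001, with 12% and 3.16% in ZNF274KO, and 2 in RPSA2.

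No tile of the stretch was called lower. The 2 largest differences below 0, singled out after their values were seen, were found at gene starts. The tile at 23430001, over the start of ZNF724, had 37.7% and 48.2% in WT and 28.6% and 28.2% in ZNF274KO (edgeR adjusted p = 0.0889). The tile at 23575001, over the start of ZNF91, had 53.4% and 46.2% against 36.2% and 35.7% (edgeR adjusted p = 0.0902). In both tiles the groups did not overlap. Each was called lower with the replicate number as a block and without 1 of the WT libraries (WT 1 for the first, WT 2 for the other), with adjusted p up to 0.675 and 0.668 over the alternatives. With a WT library left out the remaining one is assumed to vary like the ZNF274KO pair, and neither tile was called with all 4 libraries and no block.

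All 25 gene bodies could be tested, and 18 were called higher and 0 lower, against 0.888% called higher and 0.0303% called lower of 19829 gene bodies in the genome. Of the 22 ZNF genes 16 rose, with a median difference of 30.9 points over all 22, compared with -0.931 points over the genome. In 18 of the 22 each ZNF274KO library exceeded each WT library, and in 3 each was below. The share of all gene bodies in either order was not counted. Limma called 11 of the 18 bodies that edgeR called, the calls of ZNF729, ZNF98, ZNF99, ZNF91, ZNF675, ZNF681 and ZNF726 being lost. Leaving out ZNF274KO 1 left 17, the call of ZNF726 being lost.

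The largest rise was in the body of ZNF723 (ENSG00000268696, chromosome 19, 23015093 to 23041469), with 11.9% and 11.7% in WT and 69.9% and 59.1% in ZNF274KO. Its difference was 52.7 points (edgeR adjusted p = 1.89e-07). The body of ZNF43 (ENSG00000198521, 21987752 to 22034927) rose from 20.8% and 21.4% to 72.2% and 65.6%, by 47.9 points (edgeR adjusted p = 1.21e-07). Both bodies thus lay far below the genome-wide level in WT and above that of the same library in ZNF274KO.

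ZNF208 (ENSG00000160321, 22115760 to 22193751), which has the longest finger exon of the stretch, stayed lower. Its body was at 7.78% and 9.07% in WT and at 48.4% and 34.4% in ZNF274KO, a rise of 33.0 points (edgeR adjusted p = 2.20e-06). ZNF676, at 7.49% and 8.25% the least methylated gene body in WT, rose to 48.8% and 32.8%. In both genes the ZNF274KO libraries lay far above WT but also far from each other.

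ZNF429 (ENSG00000197013, 21679484 to 21739072) and ZNF91 (ENSG00000167232, 23487793 to 23578273) were already partly methylated in WT. ZNF429 rose from 37% and 37.1% to 69.2% and 62.7%, by 28.9 points (edgeR adjusted p = 7.51e-06). ZNF91, known as a repressor of SVA retrotransposons, rose from 47.1% and 42.5% to 70.3% and 62.9%, by 21.8 points (edgeR adjusted p = 0.000212). Within ZNF91 the canonical transcript alone gave a difference of 10.6 points, which was not called.

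The other ZNF genes called higher were ZNF257 (45.6 points), ZNF729 (37.9), ZNF98 (42.5), ZNF492 (27.8), ZNF99 (45.9), ZNF728 (36.5), ZNF730 (43.9), ZNF681 (41.1), ZNF675 (15.5) and ZNF726 (17.4). RPSA2 rose by 23.7 points, and ENSG00000269237, which runs from ZNF493 into the interval before ZNF429, by 33.5 points. For ZNF675, known as an inhibitor of signalling through TRAF6, the rise depended on the annotated bounds: the gene reached 161590 bases, and over the canonical transcript alone the difference was -0.968 points (edgeR adjusted p = 0.901).

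The 7 bodies not called were those of ZNF708, ZNF738, ZNF493, ZNF100, ZNF724, ENSG00000283201 and ZNF254. All had WT levels over 60%. ZNF724 had the largest difference below 0, from 77.9% and 79.3% to 73.7% and 71.9%, or -5.76 points (edgeR adjusted p = 0.446). ZNF100 had 79.2% and 76.4% in WT and 77.5% and 76.4% in ZNF274KO, and ZNF254 stood at 83.8%, 84.1%, 82.4% and 82.6%. ZNF493, next to genes that rose, had 64.7% and 61.1% against 73.0% and 69.3%, a difference of 8.22 points (edgeR adjusted p = 0.359), and was called higher without the first 2000 bases of each gene (10.7 points, edgeR adjusted p = 0.0153).

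**Figure D3:**
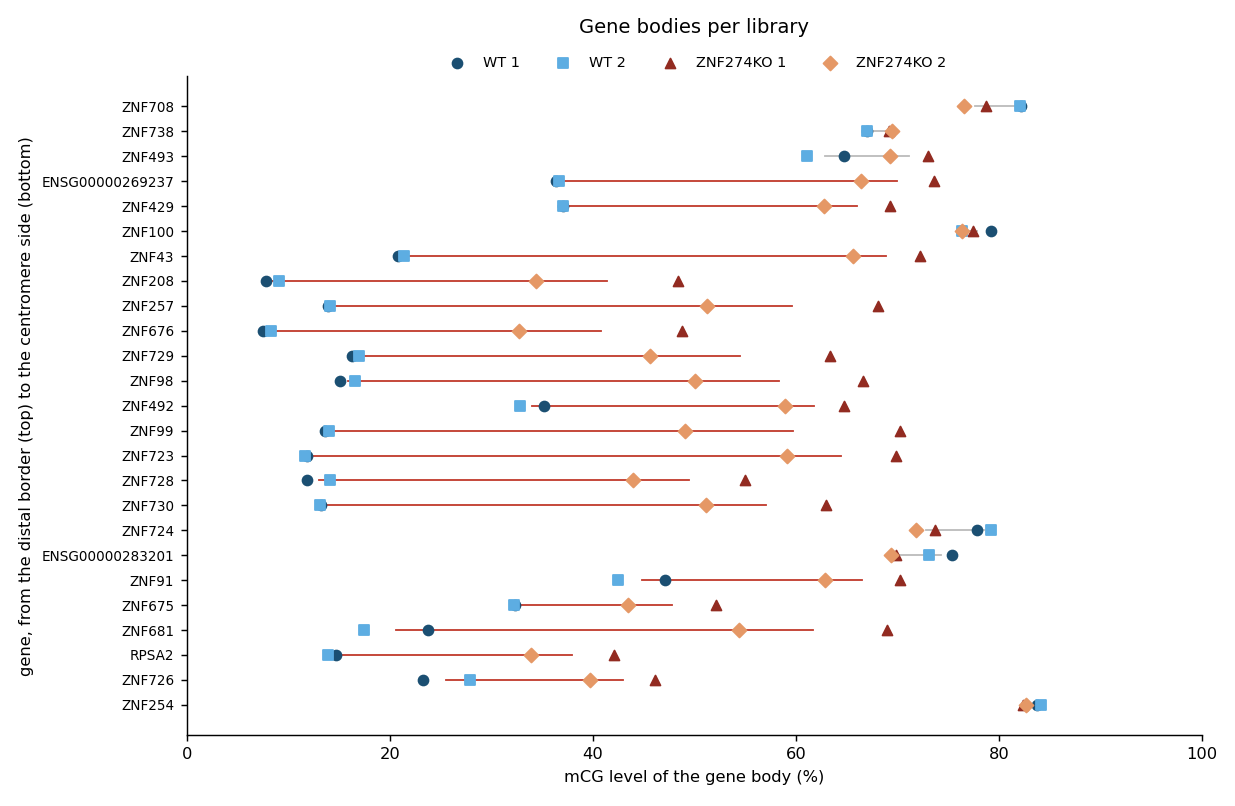
mCG level (%, x axis) of the bodies of the 25 protein-coding genes in each of the 4 libraries (symbols), ordered from the distal border (top) to the centromere side (bottom), with a line joining the group means, red where the gene was called higher. The 18 red lines start at WT levels under 50% and the 7 grey ones, all short, at levels over 60%.

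Promoters, taken as 1 kb either side of the start of the canonical transcript, moved less and not in one direction. Of the 25 members 5 were called higher and 0 lower (edgeR adjusted p from 0.0112 to 0.0456), against 0.116% called higher and 0.0354% called lower of 19757 promoters in the genome. Over the 22 ZNF genes the median difference was 1.45 points, with 11 above 0 and 11 below. Both ZNF274KO libraries exceeded both WT libraries at 11 of the 22 and lay below at 9. The share of all promoters in either order was not counted. Limma called 0 promoters in the genome, and 10 of the 25 members were higher at an unadjusted p under 0.05, against 2.49% of all promoters tested. With 500 bases either side edgeR called 0 members, and 9 of the 25 were higher at an unadjusted p under 0.05, against 2.2% of 19171 promoters. Without ZNF274KO 1 the count of members called was 2.

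The promoters called were those of ZNF43 (44.2% and 50.4% in WT, 84.2% and 73.7% in ZNF274KO), ZNF729 (44.3% and 44.8%, 84.9% and 74.6%), ZNF99 (34.5% and 39.2%, 82.8% and 70.8%), ZNF728 (35.9% and 38.4%, 79.1% and 68.6%) and ZNF676. That of ZNF676 rose most, by 44.7 points, from 2.53% and 2.97% to 54.8% and 40%, but held only 11 CpGs, whereas the others held 60 to 79. Its window (22378753 to 22380753) lies inside the annotated gene (22361891 to 22398603, minus strand), away from the outermost start. ZNF676 is also the ZNF gene left out of the 21 starts measured within 250 bases below. In each of the 5 promoters called, the lower ZNF274KO library was above the higher WT library by more than 20 points. They were picked by the test, so this separation is a description.

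At the other end stood ZNF91, with the lowest difference of all promoters of the stretch. Its 68 CpGs were at 43.1% and 36.9% in WT and at 24.5% and 21.2% in ZNF274KO, a difference of -17.2 points that was not called (edgeR adjusted p = 0.318, range over the alternatives 0.0469 to 0.944). The groups did not overlap. The promoter of ZNF429 was at 14.7% and 13.5% in WT and 9.28% and 10.4% in ZNF274KO (-4.25 points, edgeR adjusted p = 0.881). At the outermost annotated start of ZNF429, further upstream, the difference was 50.9 points (edgeR adjusted p = 0.00167, in an alternative chosen after seeing the data). ZNF208 had 26.3% and 32.2% against 42.3% and 42.5%, and ZNF723 had 26.1% and 27.5% against 53.2% and 44.4%, neither of which passed the test.

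Around the starts of the 22 ZNF genes the difference narrowed from both sides. Between 5 and 10 kb upstream the mean over genes was 20.6% and 20% in WT and 59.0% and 47.6% in ZNF274KO, with both ZNF274KO libraries above both WT libraries at 20 genes. Within 250 bases of the start it was 25.5% and 25.5% against 34.3% and 28.2%, a difference of 5.80 points, with 6 of 21 genes so ordered, 3 ordered the opposite way and a median difference of 0 points. Between 5 and 10 kb downstream it was 41.6% and 41.7% against 75% and 68.4%. Between 500 and 1000 bases downstream the means differed by 4.62 points and between 1000 and 2000 bases by 8.64 points, so the groups lay closest together from the start into the first 2000 bases of the gene. CpGs were dense there, at 3.96 per 100 bases around the start against 0.854 in the farthest upstream window. In that upstream window 1 gene had the opposite order. How often the groups are so separated in these windows around all gene starts of the genome was not counted. The counts of ordered genes are therefore a description.

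**Figure D4:**
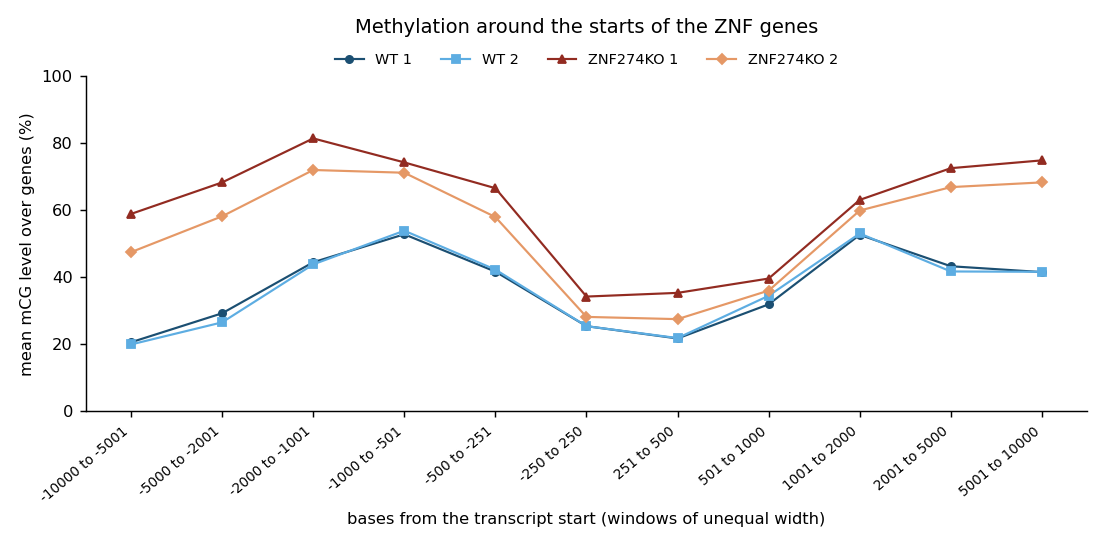
Mean mCG level (%, y axis) over the ZNF genes of the stretch in windows around the start of the canonical transcript (x axis, bases, negative upstream, windows of unequal width), 1 line per library. The group means are 32.9 points apart in the farthest upstream window and 30 points in the farthest downstream one, and nearest each other from the start to 2000 bases downstream.

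The starts fell into 3 kinds by their WT level within 250 bases. In 8 genes, ZNF708, ZNF738, ZNF493, ZNF429, ZNF100, ZNF724, ZNF91 and ZNF675, both WT libraries were under 10%, and here no ZNF274KO library exceeded 2.70%. At the start of ZNF429, 0 of 196 reads in ZNF274KO 1 and 0 of 128 in ZNF274KO 2 were methylated. At that of ZNF675, 0 of 96 and 0 of 111 were. If every count were independent, the 95% limits would be 1.53% and 2.34% for ZNF429 and 3.12% and 2.70% for ZNF675. A read is counted at each CpG it spans, so these limits are too low. Bodies of 3 of these 8 genes, ZNF429, ZNF91 and ZNF675, were called higher all the same. Over the canonical transcript alone, those of ZNF91 and ZNF675 were not called. The bodies of the others stood between 61.1% (ZNF493, WT 2) and 82.2% (ZNF708, WT 1) in WT and were not called. In 12 genes the start was partly methylated in WT, from 11.4% to 65.0%, and the bodies of all 12 were called higher. Those bodies stood between 7.78% (ZNF208, WT 1) and 35.2% (ZNF492, WT 1) in WT. The part of the WT level of the bodies in these calls was not tested. Both ZNF274KO libraries exceeded both WT libraries at 6 of the 12 partly methylated starts and lay below at 2. The share of all starts of the genome in either order was not counted, so these counts are a description.

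Among the partly methylated starts ZNF43 had 59.7% and 56.8% in WT and 86.5% and 80.2% in ZNF274KO. At the start given for ZNF43 by RefSeq, 15943 bases away, the same window had 54.8% and 51.1% in WT. There ZNF274KO 1 was at 59.3% and ZNF274KO 2 at 85.4%. ZNF257 had 27.7% and 20.9% against 66.7% and 43.0%. The 2 that lay lower in ZNF274KO were ZNF492, at 20.3% and 18.5% in WT and 7.24% and 5.83% in ZNF274KO, and ZNF730, at 37.3% and 35.0% against 21.6% and 23.8%, although the bodies of both rose. At the outermost annotated start of ZNF730, with 1 kb either side, the difference was 42.1 points (edgeR adjusted p = 0.00322, in an alternative chosen after seeing the data). The start of ZNF254 alone was methylated in all, at 96.4%, 96.1%, 97.2% and 88.2%. No test was run on these narrow windows, which held 15 to 30 CpGs each.

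**Figure D5:**
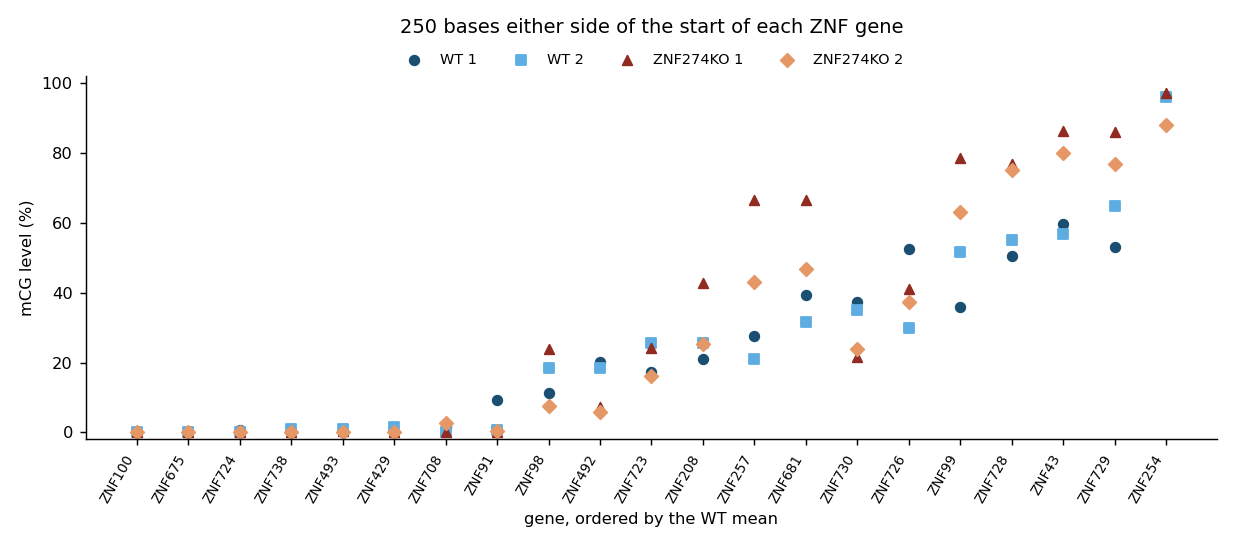
mCG level (%, y axis) within 250 bases either side of the start in each of the 4 libraries (symbols) for 21 ZNF genes ordered by their WT mean (x axis). The 8 genes at the left lie near 0% in every library except ZNF91 in WT 1 (9.42%), and from ZNF257 rightward both ZNF274KO symbols lie above both WT symbols except at ZNF730, ZNF726 and ZNF254.

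The zinc finger exons, to which ZNF274 is known to bind in many genes of this family, hold few CpGs. A stretch of 200 bases of the ZNF43 exon (chr19:21991198-21991397, minus strand, on the strand of the gene) shows the repeated array, with the letters shared by the finger exons in capitals, and contains 2 CGs.
ZNF43 exon: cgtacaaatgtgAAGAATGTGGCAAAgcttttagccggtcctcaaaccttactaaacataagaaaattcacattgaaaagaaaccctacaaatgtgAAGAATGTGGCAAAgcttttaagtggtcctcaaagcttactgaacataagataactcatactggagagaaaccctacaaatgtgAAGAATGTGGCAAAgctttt
These 2 CpGs had 0 methylated reads in both WT libraries and levels of 44% and 19% in ZNF274KO, on 16 to 25 reads.
Longest coding exons of 20 of the 25 members had at least 5 CpGs and enough reads. These included RPSA2, which has no ZNF symbol, and ENSG00000283201, whose exon lies inside that of ZNF724. Of the 20, 8 were called higher, all of ZNF genes, and 0 lower. In the genome 0.431% of 14617 longest coding exons were called higher and 0.0137% lower. ZNF738, ZNF98, ZNF723, ZNF728 and ENSG00000269237 could not be tested. The median difference over the 18 ZNF exons tested was 20.2 points. In 15 of them both ZNF274KO levels exceeded both WT levels, and in 1 both lay below. The share of all longest coding exons in either order was not counted.

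The largest rise of an exon was in ZNF492, from 28% and 22.4% to 82.1% and 70.7%, or 51.2 points on 7 CpGs, of which only 1 lies in sequence that occurs once in the genome. The exon of ZNF730 had no methylated read in WT and reached 53.1% and 44% on 6 CpGs. That of ZNF43 (21990412 to 21992609) rose from 3.70% and 1.72% to 56.2% and 39.3%, that of ZNF208 (22153996 to 22157609) from 0% and 1.85% to 38.1% and 16.7%, that of ZNF429 (21719082 to 21720877) from 17.5% and 11% to 76.2% and 46.4%, and that of ZNF91 (23542208 to 23545527) from 29.5% and 23.9% to 73.6% and 53.5%. ZNF257 and ZNF99 were the other exons called. In all 8 the groups did not overlap, and ZNF274KO 1 lay above ZNF274KO 2. The 8 were picked by the test, so the lack of overlap is a description.

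The exons of ZNF708, ZNF100, ZNF724, ZNF675 and ZNF254 were at 81.8% or more in both WT libraries, with differences from -2.53 to 6.94 points, and none was called. The lowest was that of ZNF675, at 96.6% and 97.6% in WT and 92.6% and 96.4% in ZNF274KO. The exons of ZNF729 (6.94% and 12.8%, 15.5% and 8.94%) and ZNF726 (13% and 12.2%, 18.2% and 26.5%) were low and not called, although their bodies rose. Limma called 0 exons in the genome, and 10 of the 20 members tested were higher at an unadjusted p under 0.05, against 2.67% of all exons tested. Without WT 1, WT 2 or ZNF274KO 1 the count of members that edgeR called was 0, 1 and 1. Without CpGs in repeated sequence it was 4 of 13 tested, and with at least 50 reads in every library 3 of 11 tested.

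By annotation, the difference was largest in pseudogenes and non-coding genes outside protein-coding genes, at 38.0 points, followed by CpGs outside any annotated gene, at 33.0 points. CpGs outside any annotated gene (10820) were at 19.2% and 19.1% in WT and 58.4% and 45.9% in ZNF274KO, and those in pseudogenes and non-coding genes outside protein-coding genes (3466) at 19.1% and 19.2% against 63.0% and 51.3%. Introns (11406 CpGs) had 34.3% and 33.5% against 67.4% and 58.0%, a difference of 28.8 points. Zinc finger exons (159 CpGs) had 25.2% and 25.5% against 55.4% and 43.9%, or 24.3 points, and other exons (776 CpGs) differed by 27.4 points. Promoters had 32.7% and 33.4% against 42.9% and 38.4%, the smallest difference of the classes at 7.63 points. Windows of 1 kb with 30 or more CpGs differed by 7.79 points where they lay within 1 kb of an annotated start and by 20.4 points elsewhere. These are sums over CpGs, for which no test was run.

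The neighbouring distal stretch of the same cluster (from 19.5 Mb to 21.5 Mb, 23566 CpGs) was higher in ZNF274KO too, at 48.2% and 47.4% in WT and 71.8% and 66.8% in ZNF274KO, a difference of 21.5 points. Per library, the log-odds of methylation in the centromere-side stretch minus that in the neighbour was -0.941 and -0.929 in WT and -0.445 and -0.647 in ZNF274KO. The difference between the groups was 0.389, with both ZNF274KO libraries above both WT libraries (exact permutation p = 0.333, the smallest possible). Of the neighbour's 386 tested tiles 249 (64.5%) were called higher and 1 lower, with a median difference over all tested tiles of 35.9 points, slightly above the 33.5 points of the centromere-side stretch. No test was made of the difference between these medians.

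Of 14 further ZNF genes in the neighbour, from ZNF14 to ZNF431, the bodies of 9 were called higher and 0 lower, with a median difference of 34.3 points over the 14. ZNF682 (52.2 points) and ZNF626 (51.4 points) were near ZNF723 in size, while ZNF14, ZNF506, ZNF430, ZNF714 and ZNF431, all over 70% in WT, were not called. Promoters of ZNF486 and ZNF626 were called higher and that of ZNF253 lower, and 8 of 14 zinc finger exons were called higher.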

How the data were processed

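EM-seq of HEK293T cells (WT and ZNF274KO, n = 2 libraries each) was used. The authors mapped the reads with hisat2 through the Msuite2 pipeline to hg19 with rDNA added, and deposited, for each CpG, counts of reads with C and with T on the Watson and the Crick strand. Filters on mapping quality and duplicates were not given in the sources used here. The median depth of 8 to 10 reads per CpG limits single CpGs, so counts were summed. Positions matched CG in GRCh37.

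From the deposited counts, the level was the methylated share of all reads, summed over 5 kb tiles, 100 kb bins, gene bodies, promoters (1000 bases either side of the start of the canonical transcript) and the longest coding exon of each gene (GENCODE release 44 mapped to GRCh37). Features with at least 5 CpGs and 20 reads in every library were tested over the autosomes and X in edgeR 4.0.16 (R 4.3.3), with a coefficient per library, the methylation log-odds per group, the quasi-likelihood test and Benjamini-Hochberg adjustment over all features of a kind. The model was also run on simulated reads at the depths of the libraries, and the outcome of that run is not reported here. Alternatives included limma 3.58.1 on the log2 ratio of methylated to unmethylated reads (pseudocount 1), other sizes and filters, and leaving out each library.

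The members and lists were chosen with earlier results of these data known. The named genes are all protein-coding genes of the stretch, with ZNF429, ZNF43, ZNF208, ZNF723, ZNF91 and the extremes of each feature in full, and 14 further genes of the distal neighbour. The tiles described are the 5 that rose most of those called and holding 20 CpGs or more. The shared letter strings were chosen by counting in the sequences. Some sequences are not reported here. The start of ZNF43 is that of GENCODE. RefSeq starts (assembly GRCh38.p14), found in GRCh37 by their exact letters for 17 of the 25 members, gave the same position for the others but one 15943 bases away for ZNF43. Intervals and limits cover counting error only and take every count as independent. They are too narrow, since a read is counted at each CpG it spans and PCR copies were not told apart.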

Additional observations from a re-analysis of the deposited data

How the results depend on the processing

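Several counts changed in size with the processing, and some were 0. Calls of a lower level appeared in the stretch for tiles (2 with the replicate number as a block, straight or crossed, 1 without WT 1 and 1 without WT 2) and for promoters (ZNF91 with the block and ZNF724 without WT 1). In place of the 5 kb tiles, members called higher numbered 217 of 280 in 10 kb tiles and 106 of 140 in 20 kb tiles, which are fewer and larger, against 0.504% and 0.495% of such tiles called in either direction over the genome. Under limma they numbered 175 tiles, 18 bins, 11 gene bodies, 0 promoters and 0 zinc finger exons. Promoters of 500 bases either side gave 0. For the exons a minimum of 50 reads gave 3 (of 11 tested) and leaving out CpGs in repeated sequence gave 4 (of 13 tested). Leaving out each library in turn, where the lone sample of its group is assumed to vary like the other group, gave 334 to 438 tiles, 16 to 25 bins, 17 to 18 gene bodies, 2 to 7 promoters and 0 to 8 exons, the lowest counts coming without ZNF274KO 1 except for the exons (without WT 1). The difference of the whole stretch was 24.9 to 35.5 points and that of its log-odds against the neighbour 0.289 to 0.490 when 1 library was left out. Where no cause is given here, the cause was not tested.

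The libraries share replicate numbers, but the deviations of same-numbered libraries correlated at -0.108 over the tiles of the genome and at -0.0913 over those of the stretch, so the numbers were not taken to pair them. With the number entered as a block term, 437 tiles, 25 bins, 18 gene bodies, 8 promoters and 10 exons were called higher, and the differences of the stretch (30.2 points) and against the neighbour (0.389) are the same by construction. With the numbers crossed, an alternative chosen after seeing the data, the counts were 454, 25, 18, 7 and 10.

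Single differences that changed sign were, in points, those of the ZNF675 gene body (-0.968) and the ZNF254 gene body (1.12) over the canonical transcript, and of the ZNF100 gene body without the first 2000 bases (0.994). Among promoters they were the ZNF429 promoter (0.093 with 500 bases, 50.9 at the start of the gene), the ZNF730 promoter (-6.25 with 500 bases, -2.34 without repeated sequence) and the ZNF98 promoter (1.97 at the start of the gene). Some signs changed when each library was left out in turn. There the difference of the ZNF100 gene body ranged from -2.32 to 0.554 and that of the ZNF98 promoter from -7.66 to 7.23. The difference of the ENSG00000283201 promoter ranged from -6.37 to 0.400 and that of the ZNF254 promoter from -2.61 to 0.149. That of the ZNF729 zinc finger exon ranged from -0.912 to 5.66 and that of the longest coding exon of RPSA2 from -2.29 to 19.5. Of these only the body of ZNF675 was called in the results above. Leaving out soft-masked CpGs could not be run, because the reference does not mark them. Of the CpGs of the stretch, 60.3% lie in sequence of 50 bases that occurs once in the genome after conversion, against 76.3% of all CpGs.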
